A study of Mus musculus with 12 samples.

Results

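Medium spiny neurons are the GABA-releasing projection neurons that make up most cells of the striatum, the input station of the basal ganglia, and they carry a set of signalling genes that other forebrain neurons express weakly. The genes described here are Gpr6, Rgs9, Pde10a, Ppp1r1b, Rarb, Scn4b, Syndig1l and Sh3rf2, 8 of 18820 genes with a single symbol on the array. They were selected on their lower values in cerebrum of mice given phosphatidylserine (PS) than in cerebrum of mice given its vehicle, so that difference is given below as a description with no test. Adora2a, an adenosine receptor of the same neurons, was the ninth gene of the set and was not analysed here. Each of the 8 genes had 1 transcript cluster, the array's unit of measurement for a gene. All 8 passed the filter on low values in cerebrum, Sh3rf2 through its vehicle arrays.

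The study asked how PS, a membrane phospholipid, changes gene expression in mice that model familial dysautonomia (FD), in which inherited mutations of IKBKAP impair sensory and autonomic nerve cells. There were 4 groups of 3 arrays, namely cerebrum of PS mice, cerebrum of MCT mice, heart of PS mice and heart of MCT mice. Every array, vehicle arrays included, carried the strain label C57BL/6J and the genotype label humanized knock-in IKBKAP FDloxP/+, so no group had another genotype label. PS mice were gavaged with 200 mg/kg PS and MCT mice with medium-chain triglycerides (MCT), 100 µl on alternate days, starting at 4 months of age and lasting 3 months. The labels disagree on whether all mice carried the FD allele, since one text speaks of FD mice alone and another of FD and wild-type mice, and the dose appears per day in some places. Arrays of a group are labelled as biological replicates, and the labels do not say whether heart and cerebrum came from the same mice. Both tissues held their defining transcripts: Snap25, of neurons, was 12.30 to 12.44 in cerebrum and at most 5.08 in heart, and Tnnt2, of heart muscle, was 6.43 to 6.73 in cerebrum and at least 12.36 in heart.

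Dopamine reaches medium spiny neurons through receptors that raise or lower cyclic AMP. Cyclic AMP activates protein kinase A, whose substrate DARPP-32, the product of Ppp1r1b, then inhibits protein phosphatase 1, while phosphodiesterases such as Pde10a end the signal. Neurons of the direct pathway carry the D1 receptor, substance P and dynorphin, and neurons of the indirect pathway carry the D2 receptor, the adenosine receptor Adora2a and enkephalin. Striatal neurons also depend on retinoic acid, which acts through nuclear receptors such as Rarb.

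The promoters of Gpr6 and Rarb are shown because they are the ones, among the 5 genes with a RefSeq promoter in the table used (Scn4b, Gpr6, Rgs9, Rarb and Pde10a), that hold a motif of the pathways described here. Each stretch runs from 250 bases before to 50 bases after the transcription start in GRCm38.p6, 5′ to 3′ on the gene's strand, with the motif in capitals. Both strands were searched for the cyclic AMP response element TGACGTCA and for the retinoic acid response element, a direct repeat with 5 bases between its 2 copies, each copy being AGGTCA or the variant GGGTCA or the variant AGTTCA or the variant GGTTCA.
Gpr6, minus strand, chr10:41072241-41072540: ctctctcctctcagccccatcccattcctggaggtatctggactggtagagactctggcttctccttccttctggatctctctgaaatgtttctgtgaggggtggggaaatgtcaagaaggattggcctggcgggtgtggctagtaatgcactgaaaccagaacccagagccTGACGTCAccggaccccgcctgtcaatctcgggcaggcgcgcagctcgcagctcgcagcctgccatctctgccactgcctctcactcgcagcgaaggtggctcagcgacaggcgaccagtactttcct
Rarb, minus strand, chr14:16575427-16575726: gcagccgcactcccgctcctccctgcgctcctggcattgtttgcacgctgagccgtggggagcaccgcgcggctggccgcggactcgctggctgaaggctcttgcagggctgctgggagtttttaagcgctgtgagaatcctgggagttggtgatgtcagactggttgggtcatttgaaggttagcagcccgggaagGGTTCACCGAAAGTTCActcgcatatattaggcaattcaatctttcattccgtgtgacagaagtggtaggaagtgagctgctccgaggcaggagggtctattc
The Gpr6 stretch held 1 cyclic AMP response element, whose first base lay at −78 from the start, and 1.79% of the 32851 promoters of this length held at least 1. The Rarb stretch held 1 retinoic acid response element, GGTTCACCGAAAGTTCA, with its first base at −53, against 0.0974% of all promoters. Through this element the receptor is known to drive its own gene. A match of letters is a description and not evidence of binding.

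In cerebrum, all 8 genes had lower levels on each of the 3 PS arrays than on any of the 3 MCT arrays. Levels below are log2 intensities as deposited, and differences are PS minus MCT on the log2 scale. Levels of different genes come from different probes and are not compared. The Gs-coupled orphan receptor Gpr6 raises cyclic AMP without an added ligand and is known from indirect pathway neurons (chromosome 10, 41069977 to 41072290). Gpr6 was at 5.47, 5.42 and 7.94 on PS arrays 1 to 3, against 8.59, 8.70 and 8.46 on MCT arrays 1 to 3. The third PS array lay far nearer to the MCT arrays than the other two did, and the groups did not overlap. The Gpr6 mean was 6.28 ± 1.44 in PS cerebrum and 8.58 ± 0.12 in MCT cerebrum (SD, n = 3 each), a difference of −2.31 or 4.95-fold lower.

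Rgs9 encodes a GTPase-activating protein that shortens signals of dopamine and opioid receptors in the striatum (chromosome 11, 109225348 to 109298181). Its values were 5.38, 5.95 and 8.65 on the PS arrays, against 9.58, 9.56 and 9.32 on the MCT arrays. No other of the 8 genes differed by as much: the mean was 6.66 ± 1.75 in PS cerebrum and 9.49 ± 0.14 in MCT cerebrum, a difference of −2.83 or 7.09-fold lower. The array reports 1 value for the gene, so the striatal and retinal splice forms of Rgs9 were not separated.

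Pde10a encodes a phosphodiesterase that degrades cyclic AMP and cyclic GMP (chromosome 17, 8525187 to 8986648). It measured 8.17, 8.16 and 9.76 on the PS arrays, against 10.10, 10.24 and 10.39 on the MCT arrays. The third PS array came within 0.34 of the lowest MCT array, the closest approach among the 8 genes. The means were 8.70 ± 0.92 in PS cerebrum and 10.24 ± 0.15 in MCT cerebrum, a difference of −1.55 or 2.92-fold lower.

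Ppp1r1b, the DARPP-32 gene, was at 7.93, 7.69 and 9.35 on the PS arrays, against 9.79, 10.05 and 9.79 on the MCT arrays (chromosome 11, 98348406 to 98357796). The third PS array was again the high one of its group. The mean was 8.32 ± 0.90 in PS cerebrum and 9.88 ± 0.15 in MCT cerebrum, a difference of −1.55 or 2.93-fold lower.

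Rarb, the retinoic acid receptor with a promoter printed above, had 6.60, 7.03 and 8.24 on the PS arrays, against 9.06, 9.32 and 9.14 on the MCT arrays (chromosome 14, 16430839 to 17082331). The printed stretch lies well inside these coordinates, and the gene's single value cannot be tied to that start. The groups were separate, with means of 7.29 ± 0.85 in PS cerebrum and 9.17 ± 0.13 in MCT cerebrum. The difference was −1.88, or 3.69-fold lower.

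Scn4b, the beta-4 subunit of voltage-gated sodium channels, was the least changed of the 8 (chromosome 9, 45138624 to 45154155). It measured 7.80, 7.94 and 8.38 on the PS arrays, against 9.19, 9.21 and 9.23 on the MCT arrays. The MCT arrays spanned only 0.04 here, and the third PS array stood closer to its group than it did for the other genes. The means were 8.04 ± 0.30 in PS cerebrum and 9.21 ± 0.02 in MCT cerebrum, a difference of −1.17 or 2.25-fold lower.

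Syndig1l and Sh3rf2 are the less studied genes of the set. Syndig1l encodes a striatum-enriched membrane protein related to the synapse protein Syndig1 (chromosome 12, 84677277 to 84698947). It measured 4.78, 5.03 and 5.91 on the PS arrays, against 6.66, 6.90 and 6.75 on the MCT arrays. The first 2 PS values lie below the filter of 5.04, and the groups did not overlap. Its means were 5.24 ± 0.59 in PS cerebrum and 6.77 ± 0.12 in MCT cerebrum, a difference of −1.53 or 2.89-fold lower. Sh3rf2 encodes a protein with SH3 domains of the POSH scaffold family (chromosome 18, 42052502 to 42158695). It was at 4.24, 4.22 and 6.41 on the PS arrays, against 7.36, 7.86 and 7.38 on the MCT arrays. PS arrays 1 and 2 lay below the filter and PS array 3 did not. The means were 4.96 ± 1.26 in PS cerebrum and 7.53 ± 0.28 in MCT cerebrum, a difference of −2.58 or 5.97-fold lower. The PS mean lay under the filter of 5.04, which Sh3rf2 passed through the MCT arrays, so the size of its difference is approximate.

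**Figure D1:**
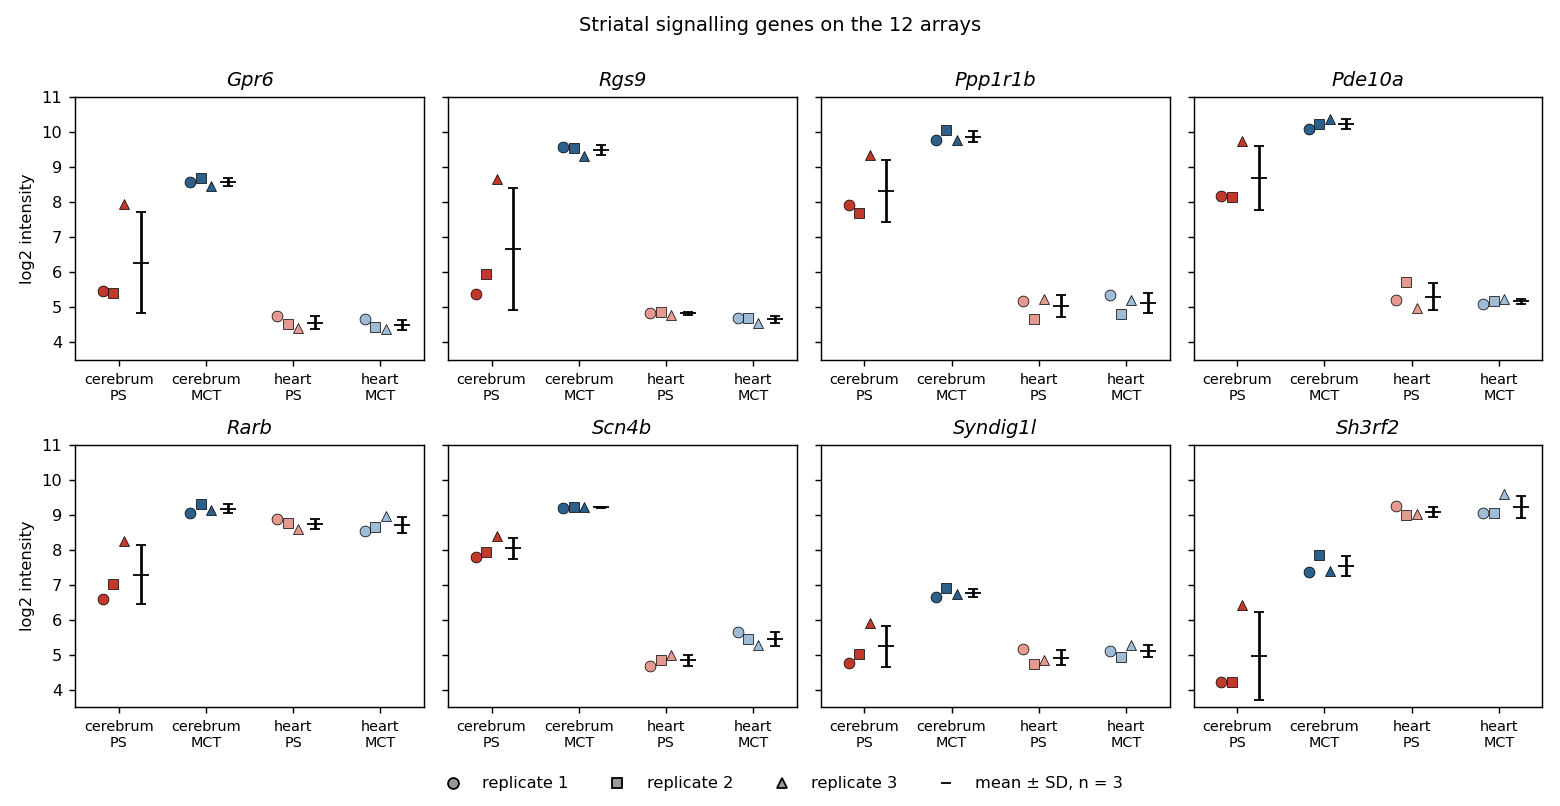
Log2 intensity (vertical axis) of each of the 8 genes on the 12 arrays, with 1 point per array, marker shape for the replicate number, and bars for the mean ± SD of 3 arrays. In cerebrum every PS point lies under every MCT point, and the third PS array (triangle) is the highest PS array for all 8 genes, while the heart groups lie close together.

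Over the 8 genes the median difference in cerebrum was −1.72, within a range of −2.83 to −1.17, against a median of −0.03 over all 12733 transcripts tested. PS and MCT values did not overlap for 8 of 8 genes, and 20.4% of all transcripts tested had PS values lower with no overlap; nothing is read from this count, since the contrast selected the genes. In whole tissue, fewer cells of a type and less RNA per cell cannot be told apart.

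The PS arrays were unequal. Changes from the MCT mean had a median over the 8 genes of −2.32 on PS array 1 (from −4.11 for Rgs9 to −1.41 for Scn4b), −2.17 on PS array 2 and −0.83 on PS array 3 (from −1.12 for Sh3rf2 to −0.48 for Pde10a). The same median over all transcripts tested was −0.003, −0.04 and −0.05 on PS arrays 1 to 3. The change on PS array 3 was 20.5% of the mean change on the other two PS arrays for Gpr6, 21.9% for Rgs9, 23.3% for Pde10a and 25.5% for Ppp1r1b. It was 34.0% for Sh3rf2, 39.6% for Rarb, 46.1% for Syndig1l and 61.9% for Scn4b. Gpr6, Rgs9, Pde10a and Ppp1r1b thus stood nearest to their MCT level on that array, and the channel subunit Scn4b farthest from it, as shares of the change. Without PS array 3 the median difference of the 8 genes was −2.22, and without PS array 2 it was −1.59.

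**Figure D2:**
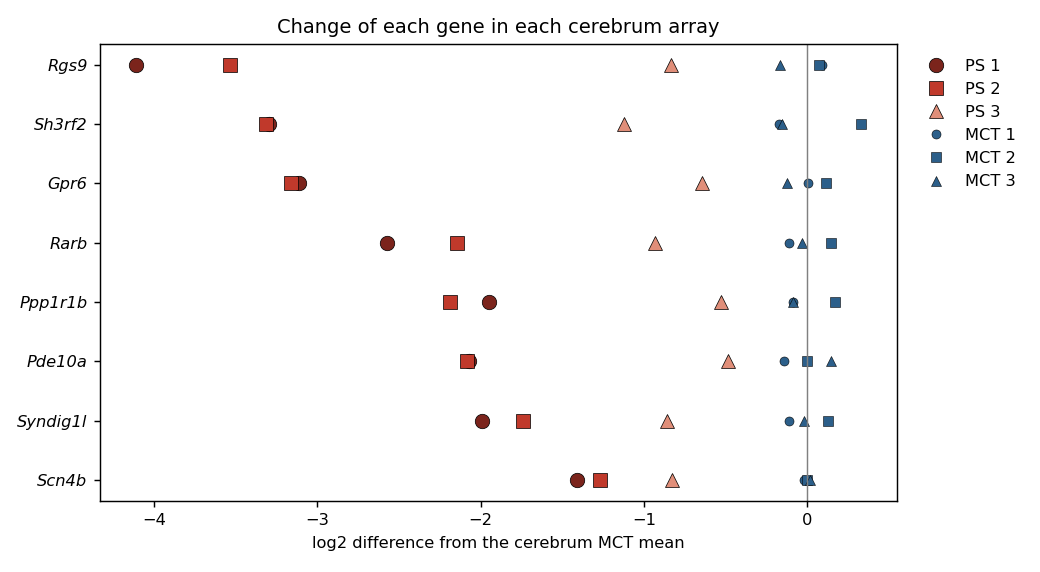
Difference of each gene on each cerebrum array from the mean of the 3 MCT arrays (horizontal axis, log2). The MCT arrays (blue) lie within 0.50 of each other for every gene, PS arrays 1 and 2 lie between −4.11 and −1.27, and PS array 3 lies between −1.12 and −0.48.

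Sex-linked transcripts also moved with the groups. Xist, the RNA of the inactive X chromosome in females, was at 9.55, 3.32 and 9.86 on the cerebrum PS arrays, against 3.77, 3.34 and 3.62 on the cerebrum MCT arrays. The Y-linked gene Eif2s3y was at 3.41, 7.25 and 3.42 on the PS arrays, against 8, 7.82 and 7.52 on the MCT arrays. PS arrays 1 and 3 therefore had the female pattern, and PS array 2 had the male pattern of the MCT arrays. On PS array 2, whose sex pattern was that of the MCT arrays, the 8 genes lay −3.54 to −1.27 from the MCT mean. That is 1 array, and it was among those that selected the genes. Sex pattern and treatment were thus partly confounded in cerebrum, and the part of sex in the difference was not tested. In heart all 3 PS arrays had the female pattern and all 3 MCT arrays the male one, so sex pattern and treatment cannot be told apart there.

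The heart arrays were not used in the selection of the genes, and whether they came from the same mice as the cerebrum arrays is not stated. By sex pattern, the mouse of cerebrum PS array 2 (male) gave none of the heart PS arrays (all female). For the other arrays the sex pattern leaves the question open. None of the 6 genes tested there passed limma's Benjamini-Hochberg adjusted p of 0.05, against 0.33% of the 12736 transcripts tested, in either direction. At an unadjusted p under 0.05 in limma, 1 of the 6 was called in either direction, namely Scn4b, lower in PS heart. Of the 12736 transcripts tested, 3015 were below that value in either direction, so nothing is read from 1 of 6. Over the 8 genes the median difference in heart was −0.03, from −0.62 to 0.17, with 0.06 over all transcripts tested.

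Scn4b was at 4.67, 4.84 and 5.01 on the heart PS arrays, against 5.66, 5.45 and 5.27 on the heart MCT arrays. The groups did not overlap, which held in the lower direction for 11.2% of all transcripts tested in heart. The difference was −0.62 (95% interval −0.96 to −0.28, limma adjusted p = 0.121), and the levels lay close to the heart filter of 4.94. It passed the threshold in 1 alternative, without heart MCT array 3 (−0.71, adjusted p = 0.0161), where 3416 transcripts in all were called. Under the other alternatives the adjusted p ran from 0.0958 to 0.330.

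Among the signalling genes, Ppp1r1b differed by −0.09 in heart (−0.55 to 0.38, limma adjusted p = 0.808) and Pde10a by 0.13 (−0.30 to 0.57, adjusted p = 0.675). Rarb is expressed in heart, at 8.88, 8.76 and 8.60 on the PS arrays, against 8.53, 8.64 and 8.97 on the MCT arrays. Its groups overlapped, and the difference was 0.03 (−0.32 to 0.38, adjusted p = 0.906). Sh3rf2 was likewise well measured in heart, at 9.25, 8.98 and 9.02 on the PS arrays, against 9.04, 9.06 and 9.58 on the MCT arrays. It differed by −0.14 (−0.54 to 0.26, adjusted p = 0.619), and its groups overlapped. Syndig1l differed by −0.19 (−0.55 to 0.16, adjusted p = 0.449). Rgs9 and Gpr6 were below the heart filter. In heart Rgs9 was at 4.83, 4.86 and 4.79 on the PS arrays, against 4.71, 4.71 and 4.55 on the MCT arrays, higher with no overlap, as for 17.2% of all transcripts tested. With no filter the Rgs9 difference was 0.17 (limma adjusted p = 0.389). Gpr6 was at 4.76, 4.52 and 4.42 on the heart PS arrays, against 4.67, 4.45 and 4.38 on the heart MCT arrays, with overlap. With no filter the Gpr6 difference was 0.07 (limma adjusted p = 0.811).

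Cerebrum and heart levels are set side by side as a description with no test, since the cerebrum arrays selected the genes. Heart levels of 6 of the 8 genes were low, at 4.38 to 5.72, so the size of their tissue differences is approximate, but those of Rarb and Sh3rf2 were not low. Differences here are cerebrum minus heart, with the means of 3 arrays each. Most of the array differs between these tissues. In limma, 9665 of 12732 transcripts were called between them in PS mice (4785 higher in cerebrum, 4880 lower). In MCT mice 9610 of 12734 were called (5130 higher, 4480 lower). Nothing is therefore read from the counts of genes above or below heart in these lines. In PS mice the cerebrum arrays lay above all heart arrays for 5 of the 8 genes and below all of them for 2, and they overlapped for Syndig1l. The differences in PS mice were 3.39 for Pde10a, 3.28 for Ppp1r1b, 3.20 for Scn4b, 1.83 for Rgs9 and 1.71 for Gpr6. They were −1.46 for Rarb, −4.13 for Sh3rf2 and 0.32 for Syndig1l.

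In MCT mice the cerebrum arrays lay above all heart arrays for 7 of the 8 genes and below all of them for 1, Sh3rf2. The differences in MCT mice were 5.07 for Pde10a, 4.83 for Rgs9, 4.75 for Ppp1r1b, 4.08 for Gpr6 and 3.75 for Scn4b. They were 1.65 for Syndig1l, 0.46 for Rarb and −1.69 for Sh3rf2. The change of a tissue difference between treatments was not tested.

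The rest of the dopamine and cyclic AMP pathway was described with a list of 38 genes, of which 34 were measured and tested in cerebrum. In limma, 4 of 34 fell and 0 rose at an adjusted p of 0.05, with 17 lower and 0 higher at an unadjusted p under 0.05. Over all transcripts tested 3.93% were called lower and 1.83% higher, and at an unadjusted p under 0.05 the shares were 17.7% and 11.3%, against which the unadjusted counts of this list and those below are to be read. The median difference of the list was −0.25, against −0.03 over all transcripts. At the upper end of the list, Cdk5r1, an activator of the kinase Cdk5, differed by 0.16 (adjusted p = 0.401), as the plot of this pathway shows.

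Gnal, the G protein alpha subunit that couples D1 and adenosine receptors to adenylyl cyclase, was at 8.79, 9.15 and 9.64 on the PS arrays, against 10, 10.20 and 10.16 on the MCT arrays. It fell by 0.93 (limma adjusted p = 0.0443), with no overlap. Pde1b, a calmodulin-dependent phosphodiesterase, was at 8.66, 8.54 and 9.33 on the PS arrays, against 9.78, 10.06 and 9.80 on the MCT arrays. It fell by 1.04 (adjusted p = 0.0383), and PS array 3 was again the high one. Rasgrp2, a Ras-family exchange factor of striatal neurons, fell by 1.29 (adjusted p = 0.0371). Ppp1ca, a catalytic subunit of protein phosphatase 1, fell by 0.51 (adjusted p = 0.0349), and its 3 PS arrays lay close together at 9.86, 9.74 and 9.91.

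The dopamine receptors themselves missed the threshold. Drd2 was at 5.55, 4.97 and 8.82 on the PS arrays, against 9.49, 9.69 and 9.53 on the MCT arrays. The difference was −3.12 (limma adjusted p = 0.0733), with no overlap between groups. Drd1 was at 6.27, 6.44 and 8.15 on the PS arrays, against 8.78, 9 and 8.69 on the MCT arrays, a difference of −1.87 (adjusted p = 0.0534). The adenylyl cyclase Adcy5 differed by −1.30 (adjusted p = 0.0556) and the G protein subunit Gng7 by −1.39 (adjusted p = 0.0793). The muscarinic receptor Chrm4 had groups that overlapped, at 8.37, 8.04 and 7.97 on the PS arrays, against 8.10, 8.01 and 8.15 on the MCT arrays, and Arpp21, another phosphoprotein of striatal neurons, differed by 0.13. Adcy5, Chrm4, Arpp21 and Cdk5r1 were named after their values were seen.

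The calls of this list depended on the setting and on single arrays. After median centring 9 of 34 fell, with the filter at the 60th percentile 9 of 33 and with an intensity trend in limma 8 of 34, and Drd1 was among them each time. Over all transcripts tested, 814 of 12733, 537 of 8492 and 612 of 12733 were called lower under these settings. With no filter 2 fell (Ppp1ca and Rasgrp2, with Gnal and Pde1b lost), with the filter at the 20th percentile 3, and with the replicate block 0. The calls lower over all transcripts were then 374 of 21218, 401 of 16980 and 0 of 12733. Without PS array 3, 12 of 34 fell, among them Drd1 and Drd2, while 875 of 12731 transcripts in all were called lower. Without PS array 1, PS array 2, MCT array 1 or MCT array 2, 0 of 34 were called, and without MCT array 3, 2 were. Among all transcripts, 0, 101, 0 and 2 were called lower without those first arrays in turn, and 418 without MCT array 3. Counts of 0 under settings with few calls on the whole array say little about a list. The totals given here for each setting apply to the lists below too.

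**Figure D3:**
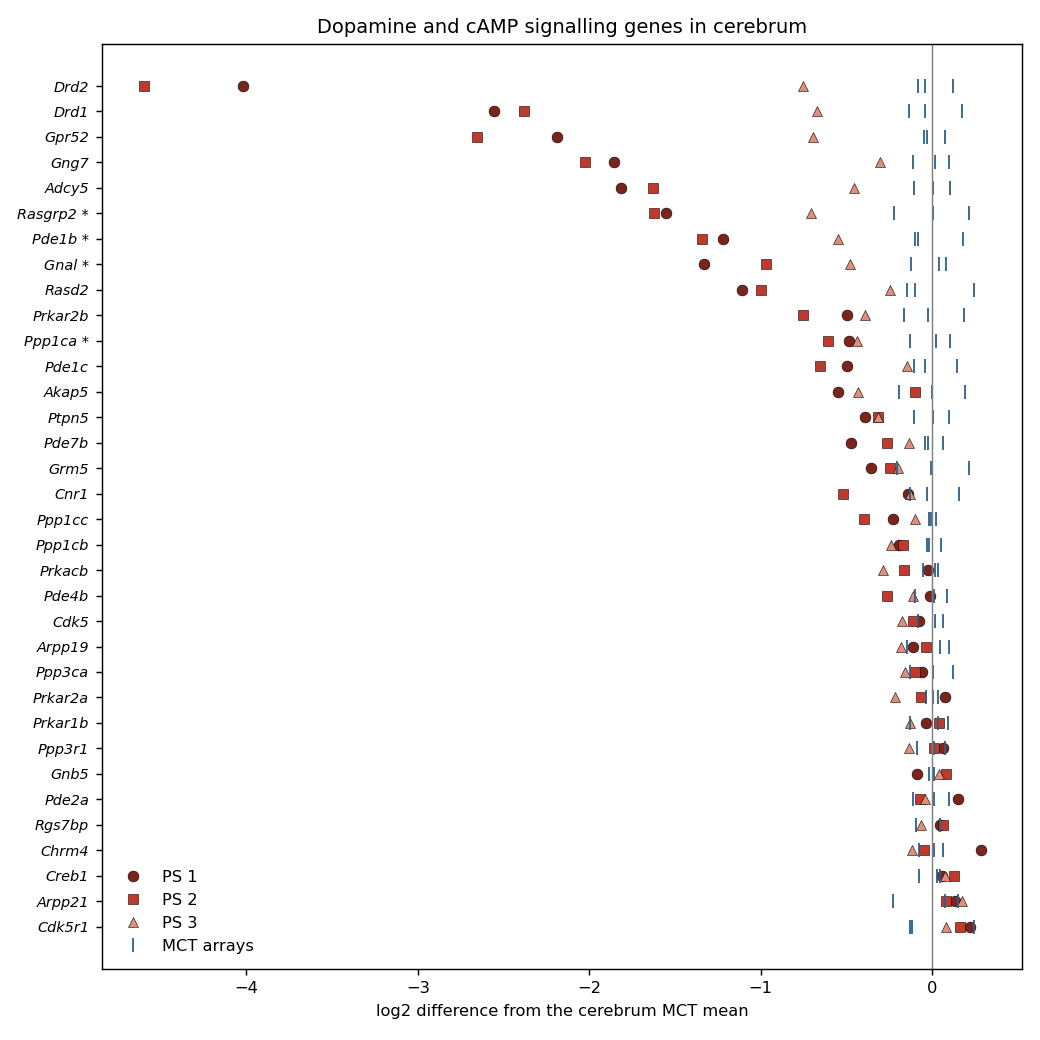
Difference of the 34 measured dopamine and cyclic AMP genes from the cerebrum MCT mean (horizontal axis, log2), with 1 symbol for each PS array and a tick for each MCT array. Genes run from the lowest to the highest mean difference, −3.12 for Drd2 at the top, and an asterisk marks an adjusted p under 0.05.

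Of 31 listed relatives of the 8 genes in the same families, 25 were tested in cerebrum, 0 fell and 1 rose in limma, with 5 lower and 3 higher at an unadjusted p under 0.05, and their median difference was −0.04. The one that rose was Gpr3, a constitutively active receptor close to Gpr6. Gpr3 was at 6.79, 7.32 and 6.82 on the PS arrays, against 6.08, 6.44 and 6.10 on the MCT arrays, a difference of 0.77 (adjusted p = 0.0443). That is the opposite direction to Gpr6, and the Gpr3 call was lost with no filter, with the filter at the 20th or 60th percentile, with the replicate block and without any 1 of the arrays other than PS array 3. Among retinoid receptors, Rxrg, which pairs with Rarb, was at 5.29, 5.09 and 8.37 on the PS arrays, against 9.07, 9.18 and 8.89 on the MCT arrays (difference −2.80, limma adjusted p = 0.0720). Rara differed by 0.41 (adjusted p = 0.0805), higher on each PS array than on any MCT array. Rgs2 differed by −0.35 (adjusted p = 0.0754).

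A list of other striatal markers was drawn up with results of these samples known, so its direction is not independent evidence. Drd1, Drd2, Adcy5, Gng7, Pde1b, Rasd2, Ptpn5 and Arpp21 also stand in the dopamine and cyclic AMP list. Rxrg and Rgs8 also stand among the relatives of the 8 genes, and Rxrg among the transcription factors below. The lists are therefore not separate results. Of 22 tested striatal markers outside the set, 4 fell and 0 rose in limma, with a median difference of −1.03 over the 25 measured. They were Tmem158 (−1.08, adjusted p = 0.0237), the transcription regulator Id4 (−0.85, adjusted p = 0.0443), Pde1b, and the substance P precursor Tac1. Tac1 was at 5.92, 6.19 and 8.77 on the PS arrays, against 9.88, 10.23 and 9.81 on the MCT arrays, a difference of −3.01 (adjusted p = 0.0469). After median centring 7 of 22 fell, with the filter at the 60th percentile 7 of 19 and with the intensity trend 6 of 22. With no filter 3 of 25 fell (Gpr149, Nexn and Tmem158), and with the replicate block 0 did. The PS means of Gpr149 (3.73) and Nexn (3.92) lay under the filter of the main fit, so their calls with no filter are no support. Without PS array 3, 13 of 21 fell, without PS array 2, 2 of 23 did, without MCT array 3, 1 did, and without PS array 1, MCT array 1 or MCT array 2 none did. Lrrc10b, called without PS array 3, and Gpr149, called without PS array 2, passed the filter through the MCT arrays. Their calls are no support.

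Transcription factors of striatal neurons gave 3 of 14 lower and 0 higher in limma, with a median of −0.57 over the 19 measured. Zfp521 was at 6.06, 6.35 and 6.31 on the PS arrays, against 7.26, 7.56 and 7.18 on the MCT arrays, and fell by 1.09 (adjusted p = 0.0136). It differs from the 8 signalling genes in that PS array 3 was no higher than PS array 2. Dlx6, a homeobox factor of GABAergic neurons, fell by 1.35 (adjusted p = 0.0236), and Foxp2, a forkhead factor, fell by 0.86 (adjusted p = 0.0424). Ebf1 differed by −0.69 (adjusted p = 0.0539). Of the 19 measured, 15 had a lower mean in PS. Foxp1 (−0.02), Dlx1 (0.01) and Dlx2 (0.15), named after their values were seen, had groups that overlapped. After median centring 4 of 14 fell, Ebf1 included, with the filter at the 60th percentile 2 of 9, and with the replicate block 0. Without PS array 3, 10 of 15 fell, without PS array 2, 3 of 15 did, without MCT array 3, 2 did, and without PS array 1, MCT array 1 or MCT array 2 none did. Isl1 (3.57, 3.69 and 4.42 on PS arrays 1 to 3) was called without PS array 3 and without PS array 2. It passed the filter there through the MCT arrays, so its calls are no support.

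Split by pathway, 3 of 7 tested markers of direct pathway neurons fell (Tac1, Slc35d3 and Zfp521), with a median difference of −1.36 over the 8 measured. Tac1 and Zfp521 were already counted in the lists above. The dynorphin precursor Pdyn was at 6.72, 6 and 5.78 on the PS arrays, against 6.57, 6.57 and 6.32 on the MCT arrays. Its groups overlapped, the difference was −0.32 (limma adjusted p = 0.381), and PS array 3 was the lowest. Of the 8 measured, 7 had a lower mean in PS. Pdyn was named after its values were seen. Slc35d3, a transporter needed for D1 receptor trafficking, was at 4.31, 4.61 and 5.88 on the PS arrays, against 6.38, 6.67 and 6.62 on the MCT arrays, a difference of −1.62 (limma adjusted p = 0.0469). Slc35d3 had a PS mean under the filter and passed it through the MCT arrays, so its call is no support. None of 6 tested markers of indirect pathway neurons passed limma's threshold, while 3 were lower at an unadjusted p under 0.05. Their median difference was −0.30 over 7 measured. The enkephalin precursor Penk was at 9.08, 9.13 and 11.57 on the PS arrays, against 11.80, 11.81 and 11.77 on the MCT arrays (difference −1.87, adjusted p = 0.0969). The orphan receptor Gpr52 differed by −1.85 (adjusted p = 0.0522) and the transcription factor Sp9 by −0.25 with overlap. Ptprm (0.09) and Grik3 (0.003), named after their values were seen, overlapped too, and 5 of the 7 measured had a lower mean in PS. Gpr52 was called after median centring, with the intensity trend and with the filter at the 60th percentile. Under the first of these settings 5 of 7 direct pathway markers fell, with no filter 2 of 8, and with the replicate block 0. Slc35d3 was among those called after median centring, and Isl1 among those called with no filter. The PS mean of each lay under the filter of the main fit, so these calls are no support. Without PS array 3, 6 of 8 direct and 4 of 6 indirect pathway markers fell, and the difference between the lists was not tested. Isl1 and Slc35d3 were among the direct ones and passed the filter through the MCT arrays, so their calls are no support. Without PS array 2, 2 and 0 fell, without MCT array 3, 1 and 0 did, and without PS array 1, MCT array 1 or MCT array 2 none did. Isl1 was again among those called without PS array 2.

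Markers of other cell types and regions were set beside these values, and their part in the result was not tested. For 9 measured genes of neurons of all types, 0 were called in limma, 0 were lower and 2 higher at an unadjusted p under 0.05, and the median difference was 0.06. Their median level ran from 10.96 to 10.99 on the PS arrays and from 10.91 to 11.01 on the MCT arrays. Cortical projection neuron markers had a median difference of 0.46 over 10 genes, with 1 of 10 higher (Fezf2, 0.74, adjusted p = 0.0487) and 6 of 10 higher with no overlap, as were 12.4% of all transcripts tested. The Fezf2 call was lost after median centring, with no filter, with the filter at the 20th percentile and with the replicate block. Their median level ran from 8.15 to 8.65 on the PS arrays and from 8.04 to 8.17 on the MCT arrays. Per array, the median change of these cortical genes was 0.68, 0.57 and 0.30 on PS arrays 1 to 3, against 0.06, −0.26 and 0.17 on MCT arrays 1 to 3. The PS array with the smallest change of the 8 striatal genes also had the smallest change here, close to MCT array 3. GABAergic markers gave 2 of 4 lower, Gad2 by −0.68 (adjusted p = 0.0383) and Abat by −0.45 (adjusted p = 0.0443), while Gad1 differed by −0.04. Both calls were lost with no filter and with the replicate block, and that of Abat also with the filter at the 20th percentile. Without PS array 3, 6 of 10 cortical markers rose and 3 of 4 GABAergic markers fell, and without PS array 2 none of either list was called. Of the genes of neurons of all types, Rbfox3 rose without PS array 3. The cortical marker Slc17a7 rose without MCT array 3. Rbfox3, Slc17a7, Fezf2, Gad2 and Abat, and the glial and cholinergic genes of the next lines, were named after their values were seen.

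Of 5 measured cholinergic markers, 4 were lower on every PS array than on any MCT array, as were 20.4% of all transcripts tested. Most of the 5 lay under the filter, so nothing is read from this count. The choline transporter Slc5a7 was at 4.48, 4.56 and 5.18 on the PS arrays, against 6.13, 6.61 and 6.51 on the MCT arrays, a difference of −1.68. The vesicular acetylcholine transporter Slc18a3 differed by −1.03. These 2 were the only ones of the 5 above the filter of 5.04, which they passed through the MCT arrays, so no count of calls is given for this list. Interneurons of the striatum and neurons of the basal forebrain carry these transporters. Oligodendrocyte markers gave 3 of 8 lower (Mog, Opalin and Aspa), with a median difference of −0.54, and their median level ran from 8.09 to 8.58 on the PS arrays and from 8.71 to 9.12 on the MCT arrays. Without PS array 2, 0 oligodendrocyte markers fell, and without MCT array 3, 5 did. With no filter 1 of them fell (Opalin), after median centring and with the intensity trend 4, and with the replicate block 0. Without PS array 1, MCT array 1 or MCT array 2, no gene of any list was called in cerebrum, where 0, 0 and 2 transcripts in all were called. Astrocyte and microglia lists had medians of −0.09 and −0.01, with 0 of 8 and 0 of 6 called and 1 and 0 at an unadjusted p under 0.05. Lists for thalamus (median −0.51, 0 of 8 called), hypothalamus (−0.60, 0 of 4), hippocampus (−0.19, 0 of 4), cerebellum (−0.36, 0 of 5) and cardiomyocytes (−0.02, 0 of 3) had 2, 1, 1, 2 and 0 genes lower at an unadjusted p under 0.05. The calls of these lists also changed with the setting. Zic1 stood in both the thalamus and cerebellum lists, and Calb2 in both the thalamus and hippocampus lists. Zic1 fell after median centring and with the filter at the 60th percentile. Without PS array 3, Zic1 and Calb2 fell and Ryr2, of the cardiomyocyte list, rose. Oxt, of the hypothalamus list, fell without MCT array 3. These genes were named after their values were seen. Olfactory bulb markers had a median change of −0.53, −0.63 and 1.23 on PS arrays 1 to 3. On MCT arrays 1 to 3 it was 0.20, −0.10 and −0.23. PS array 3 thus stood above the other PS arrays, as for the 8 striatal genes. Here it also stood above the MCT arrays, whereas for the 8 genes it lay below them. Without PS array 3, 2 of 4 olfactory bulb markers fell. They were Cdhr1 (5.44 and 3.81 on PS arrays 1 and 2) and Th (4.29 and 4.68). In heart, 0 genes of any list were called.

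**Figure D4:**
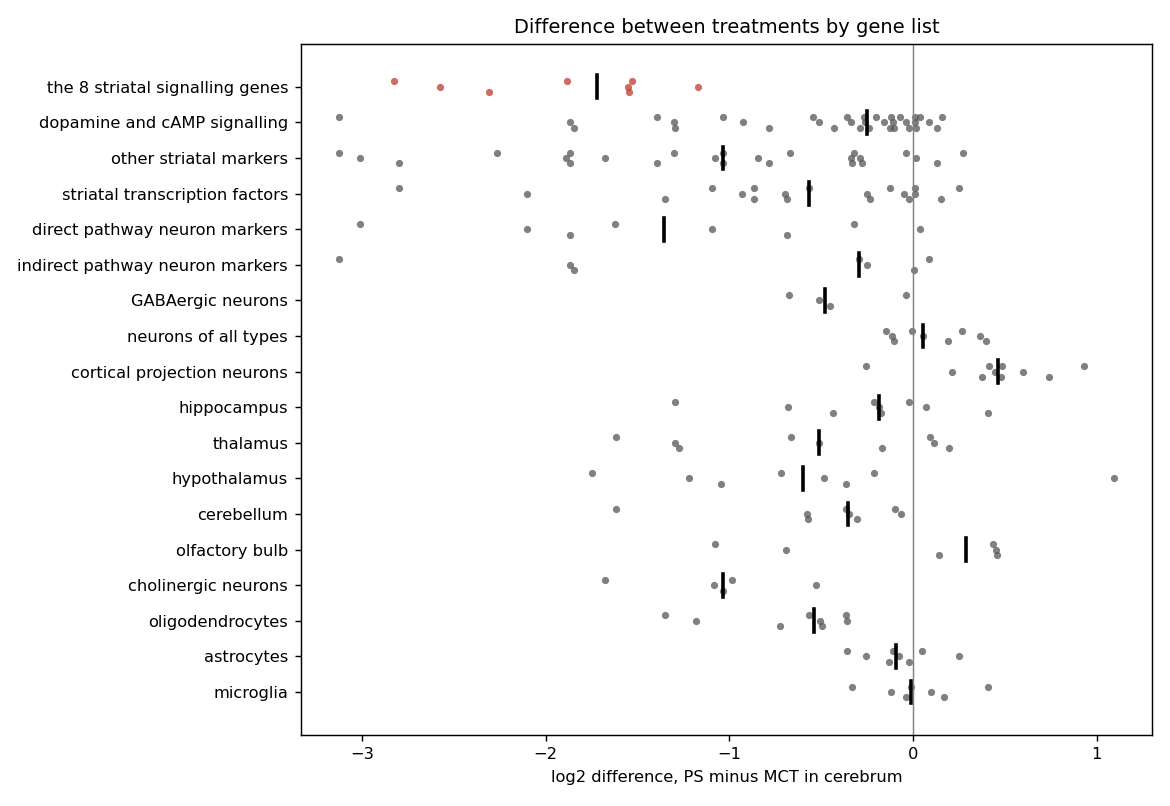
Difference between treatments in cerebrum (PS minus MCT, log2) for each measured gene of the lists, with 1 point per gene and a black bar at the list's median. The 8 signalling genes (red, median −1.72) and the striatal lists have medians below 0, neurons of all types (median 0.06) centre on 0, and cortical projection neuron markers (median 0.46) lie mostly to the right. Medians below 0 are also seen for cholinergic neurons (−1.03), hypothalamus (−0.60), oligodendrocytes (−0.54), thalamus (−0.51), GABAergic neurons (−0.48) and cerebellum (−0.36), among others. The olfactory bulb median (0.29) is above 0.

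Genes whose profile over the 6 cerebrum arrays was nearest to the mean profile of the 8 were found by the root mean square difference of values centred on each gene's own mean. This is a description over arrays that also selected the 8 genes. The nearest was the D1 receptor gene Drd1, at a distance of 0.06, followed by Gpr52 (0.18), Slc35d3 (0.20), Lrrc10b (0.20), the D3 receptor gene Drd3 (0.22), Slc10a4 (0.23), Penk (0.26), Rem2 (0.27), Gng7 (0.28) and Dach1 (0.29). Predicted gene models with no established name were passed over, which left out 1 profile nearer than the last of these. The 8 genes themselves lay between 0.13 for Rarb and 0.64 for Rgs9, and the median over the 12733 transcripts was 1.12. Drd3 was at 4.14, 4.16 and 5.31 on the PS arrays, against 6.13, 6.72 and 6.45 on the MCT arrays, with PS array 3 again the high one. Rgs9 and Scn4b, which had the largest and the smallest difference of the 8, were also the farthest from the mean profile. The distance is not scaled for the size of a change, so the measure itself largely fixes this.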

How the data were processed

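Total RNA of cerebrum and heart was labelled with a whole-transcript biotin kit for Affymetrix arrays, per the labels' protocols. The deposited values are log2 intensity per transcript cluster, summarised by the authors with Affymetrix Expression Console (named in the submitters' processing notes). The sources used here do not state the summary method or the normalization. Values ran from 1.9 to 13.11, with array medians of 4.89 to 5, and were used as deposited. Transcript clusters with 1 symbol in the platform annotation were kept (21218 of 35556), and those with several or none were left out. A value per cluster hides differences between exons. With 3 arrays a group, precision is limited.

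Comparisons used limma 3.58.1 (lmFit, eBayes; two-sided) in R 4.3.3 on the whole table, with Benjamini-Hochberg adjustment, a threshold of 0.05, and a filter at the 40th percentile of mean level over the arrays of each fit. Fits were tested on simulated data. Lists used each gene's transcript cluster of highest mean, and medians cover measured genes. The genes and lists were chosen with earlier results of these data known. Named from the pathway, family, striatal and transcription factor lists were up to 4 genes by lowest p, plus the 10 nearest profiles. Alternatives changed the filter, the scaling, the intensity trend, the replicate block and the arrays used. Replicate numbers were not taken to pair arrays: deviations of same-numbered arrays correlated at −0.005 to 0.147 in heart and −0.259 to 0.101 in cerebrum, and between tissues at 0.053 to 0.119 in PS and 0.099 to 0.285 in MCT mice. Fits between tissues were run, but their p-values are not given, because the cerebrum arrays chose the genes. Promoter sequences and coordinates are from RefSeq (GRCm38.p6), matched by symbol.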

Additional observations from a re-analysis of the deposited data

Results flagged for a closer look

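Rgs9 was lower on every PS array than on every MCT array in cerebrum (difference −2.83, from the arrays that selected the gene) and higher on every PS array than on every MCT array in heart (difference 0.17). The cerebrum difference less the heart difference was −2.997. The heart levels of Rgs9 lay under the filter of 4.94, the limma adjusted p in heart with no filter was 0.389, and 17.2% of all transcripts tested in heart were higher on the PS arrays with no overlap. The difference between tissues was not tested.

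The striatal transcription factors Zfp521 and Ebf1 were also lower in cerebrum and higher in heart with no overlap. Zfp521 had heart values of 7.85, 8.19 and 7.72 on the PS arrays, against 7.67, 7.71 and 7.65 on the MCT arrays (difference 0.24), and its cerebrum difference less its heart difference was −1.337. Ebf1 had heart values of 8.09, 8.61 and 8.02 on the PS arrays, against 7.65, 7.98 and 7.94 on the MCT arrays (difference 0.38), and its cerebrum difference less its heart difference was −1.07. In cerebrum the limma adjusted p was 0.0136 for Zfp521 and 0.0539 for Ebf1, in heart neither was called, and the share of 17.2% applies to both. The difference between tissues was not tested for either.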

How the results depend on the processing

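For PS against MCT in heart, 0 of the signalling genes were called under every alternative run but 1, so the count ranged from 0 to 1 when arrays were left out, with 1 without heart MCT array 3. The median difference of the 8 genes in cerebrum ran from −2.22 to −1.45 when arrays were left out, and was −1.77 after quantile normalization and −1.75 after median centring. Single differences recomputed in cerebrum ran from −3.82 to −1.05, a direction that the choice of genes fixes. In heart 40 of 48 kept their direction. With the replicate block, 0 of the genes were called in heart. Over all transcripts, 734 were called in cerebrum (233 higher, 501 lower), 812 (340 higher, 472 lower) after quantile normalization, 988 (174 higher, 814 lower) after median centring and 0 with the replicate block, where 3083 had an unadjusted p under 0.05. Without single cerebrum arrays the count ran from 0 to 1557. In heart the 42 calls became 88 with the block and 4 to 3416 without single arrays. The cause of these shifts was not tested.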

Other observations

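In cerebrum, the hypothalamic gene Pomc, the precursor of melanocortins and beta-endorphin, was at 4.62, 4.41 and 8.10 on the PS arrays, against 4.55, 4.79 and 4.51 on the MCT arrays, so PS array 3 stood alone. Prkcd, a protein kinase C of thalamic neurons, was at 5.95, 6.06 and 6.12 on the PS arrays, against 6.63, 8.25 and 7.08 on the MCT arrays, with MCT array 2 the highest. Both genes were chosen after their values were seen, and neither passed limma's threshold between treatments under any setting run.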
